A study of Mus musculus with 6 samples.

Results

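A pair of RNA sequencing libraries from a mouse aortic cell line, taken with and without TNF, was compared gene by gene. The pair was chosen by the names of the deposited files, which read basal_TNF and basal, and it makes up 2 of the 6 libraries of the series. The line is labelled Fn AB+/-, was made immortal with TetOn-SV40 and is described as aortic endothelial. Cells were expanded in doxycycline and then plated in serum without it, and TNF-treated cells received 30 ng/mL TNFalpha for a time that is not given in the sources used here. The other 4 libraries, named KO_TNF, KO, Rescue_TNF and Rescue, come from a single-cell CRISPR clone with Ptbp1 knocked out and from that clone carrying a human PTBP1 cDNA. Each name has 1 library, so no difference within the parental pair has a replicate check or a p-value.

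File names and sample labels read differently for 4 of the 6 libraries. The library named basal_TNF is labelled as an untreated Ptbp1 knockout, and the library named basal is labelled as untreated wild type. Ptbp2, the neuronal paralogue that Ptbp1 holds down, was at 37.8 CPM in basal_TNF and 38.1 CPM in basal, against 192 CPM in KO_TNF and 219 CPM in KO. Between these levels lay Rescue_TNF at 76.6 CPM and Rescue at 67.6 CPM. Ccl2, an NF-kB target, was at 2033 CPM in basal_TNF and 46.1 CPM in basal. The library labelled as an untreated knockout hence had low Ptbp2 and high Ccl2, which goes against its label, and the groups here follow the file names. Since Ccl2 was used for this check, its later values are not independent of the grouping. Ptbp1 itself, a repressor of exon inclusion, was at 422 CPM in basal_TNF and 337 CPM in basal, at 425 CPM in KO_TNF and 388 CPM in KO, and at 187 CPM in Rescue_TNF and 173 CPM in Rescue. Its total was thus not low in the libraries named KO, and the part of the gene that was cut is not given in the sources used here, so this level checks no label. CPM is a count scaled to a common library total, with TMM factors. Totals ran from 19598779 to 21626824 counts over the 6 libraries, with 21480301 in basal_TNF and 19615837 in basal.

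The endothelial label was checked against 16 endothelial markers, of which 9 passed the filter on low counts. Pecam1 was at 0.576 CPM in basal_TNF and 0.456 CPM in basal, and Cdh5 was at 0.959 CPM in basal_TNF and 0.456 CPM in basal. Tie1, Cldn5 and Icam2 had 0 counts in both libraries. Summed over the 9 markers the level was 428 CPM in basal_TNF and 307 CPM in basal, most of it Eng with 374 and 284 CPM. Flt1, a VEGF receptor, was at 44 CPM in basal_TNF and 14.5 CPM in basal (1.60), and Erg, an endothelial transcription factor, at 0.24 CPM in basal_TNF and 1.11 CPM in basal (-1.85). The 15 smooth muscle and fibroblast markers summed to 14977 CPM in basal_TNF and 27815 CPM in basal, led by Col1a1. Apart from Eng and Flt1, each of the 16 markers was under 4 CPM in both libraries, and the cells are called the parental line here. Of 10 blood cell markers 4 passed, 2 of them at least 2-fold higher and 1 at least 2-fold lower. Cd14 and Cd68, which stromal cells can also express, had 20.1 and 7.35 CPM and 13.3 and 7.91 CPM in basal_TNF and basal. Ptprc and Cd3e, which define leukocytes and T cells, had 0 counts in both. In bulk samples, fewer cells of a type and less RNA per cell cannot be told apart.

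TNF binds the receptors Tnfrsf1a and Tnfrsf1b. It frees NF-kB dimers from their inhibitors, the IkB proteins, so that they enter the nucleus and switch on chemokines, adhesion molecules and the inhibitors themselves. In many cell types TNF also leads, through IRF and STAT factors, to a slower set of interferon response genes that serve antiviral defence and antigen presentation. Each receptor gene had about the same level in both libraries, Tnfrsf1a at 177 CPM in basal_TNF and 184 CPM in basal and Tnfrsf1b at 61.4 CPM in basal_TNF and 59.1 CPM in basal. Transcripts of TNF itself were at 1 count in basal_TNF and 0 in basal.

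Of 13147 genes that passed the low-count filter, 808 (6.15%) were at least 2-fold higher in basal_TNF than in basal and 912 (6.94%) were at least 2-fold lower. These counts use log2 ratios with a prior count of 2. At 8-fold or more the balance turned, with 159 genes higher and 49 lower. Among the 9613 genes with at least 10 CPM in either library, 469 were at least 2-fold higher and 295 at least 2-fold lower. Lower genes were more frequent among weakly expressed genes: 25.6% of genes with a mean below 1 TPM (transcript abundance per length, summing to the same total in each library) were lower, against 1.67% of those at 100 TPM or more. The shares of higher genes in these bins were 13.6% and 5.25%. The median log2 ratio of all genes was −0.02. The 808 higher genes held 8.12% of all TPM in basal_TNF, against 1.94% in basal, and the 912 lower genes held 0.853% in basal_TNF, against 2.64% in basal. An exact binomial interval of the count ratio lay wholly past 2-fold for 551 higher and 396 lower genes. Such intervals cover counting error at the 95% level and nothing else.

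**Figure D1:**
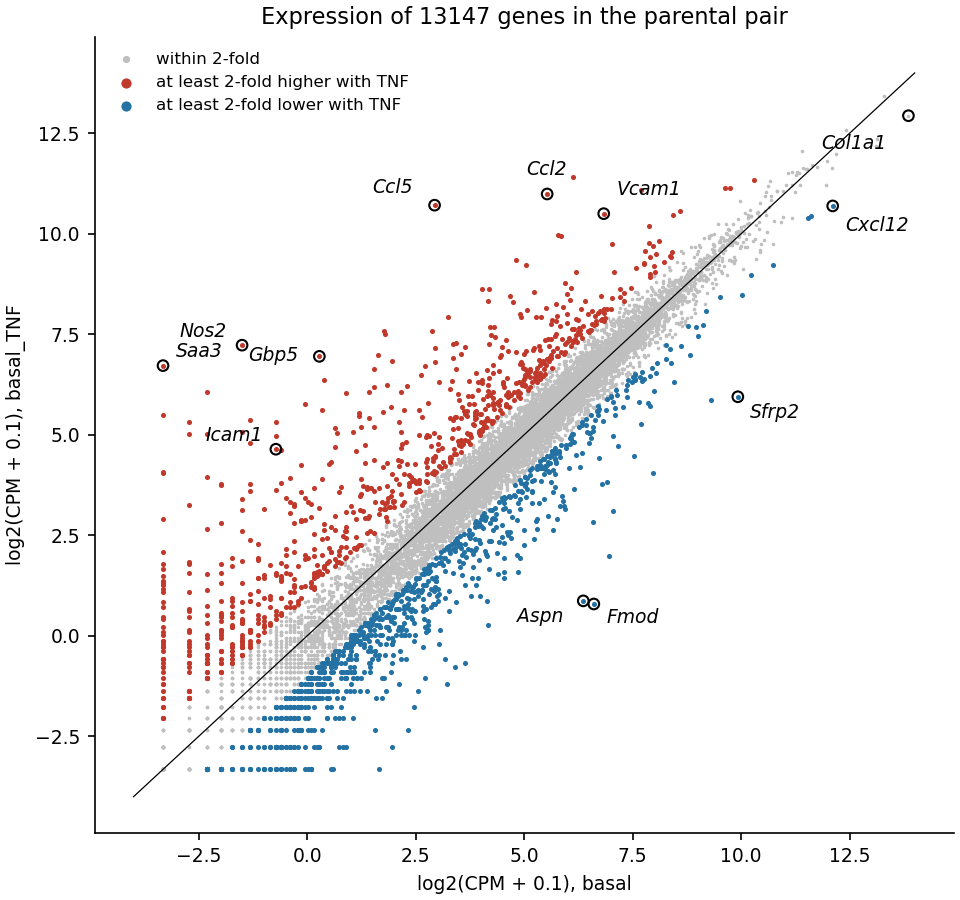
Each point is 1 of 13147 genes, with its level in basal on the horizontal axis and in basal_TNF on the vertical axis, both as log2 of CPM with 0.1 added. Red and blue points are the 808 genes at least 2-fold higher and the 912 at least 2-fold lower with TNF, and named genes are circled. Nos2 and Saa3 lie near the floor of the horizontal axis and far above the diagonal, and Fmod and Aspn lie far below it.

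The 5 response markers were all far higher in basal_TNF. Ccl2, the chemokine that draws monocytes, had 2033 CPM in basal_TNF and 46.1 CPM in basal, a log2 ratio of 5.46 (counting interval 5.37 to 5.56). Vcam1, an adhesion molecule for monocytes and lymphocytes, had 1448 CPM in basal_TNF and 114 CPM in basal, a log2 ratio of 3.67 (3.61 to 3.73). Both were thus clearly expressed without TNF. The other markers were at or near 0 there. Icam1, the ligand of leukocyte beta-2 integrins, had 24.9 CPM in basal_TNF and 0.507 CPM in basal, from 518 and 10 counts, a log2 ratio of 5.37 (4.73 to 6.68). Nos2, the inducible nitric oxide synthase, had 149.9 CPM in basal_TNF and 0.253 CPM in basal, from 3125 and 5 counts, a log2 ratio of 8.74 (7.98 to 10.83). Saa3, an acute phase protein, had 2196 counts (105 CPM) in basal_TNF and 0 in basal, which makes it at least 693-fold higher when set against a floor of 3 counts in basal. In TPM, which allows genes to be compared, basal_TNF held 6017 of Ccl2, 592 of Saa3 and 68.4 of Nos2.

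Among genes with at least 10 CPM in either library, the 20 highest ratios held 5 genes of the acute phase list and 4 chemokines. After Saa3 came Irg1, which makes itaconate, with 941 counts in basal_TNF and 0 in basal, at least 297-fold higher on the same floor. Cfb, complement factor B, had 66.3 CPM in basal_TNF and 0.101 CPM in basal (log2 ratio 8.38). Ch25h, which makes 25-hydroxycholesterol, had 39.8 CPM in basal_TNF and 0.0507 CPM in basal (8.07). These 3 genes were thus practically silent without TNF. Ccl5, a chemokine for T cells and monocytes, had 1676 CPM in basal_TNF and 7.55 CPM in basal (7.78), and its 9418 TPM in basal_TNF, against 46.1 TPM in basal, was the largest gain in TPM of any gene. Further genes of the 20 were Slfn2, Clec4e, Gm11435, Ccl8, Gm12250, Gbp5, Tnip3, Serpinb2, Hp, Neurl3, Zbp1, Spib, Cxcl10 and Cxcl9, with log2 ratios from 5.79 for Cxcl9 to 7.77 for Slfn2. Gm11435 had no count in basal and Clec4e, a receptor for mycobacterial glycolipid, had none either.

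Genes that gained most in TPM were a different kind, since many were already abundant. After Ccl5 and Ccl2 these were B2m, Ccl7, Ifitm3, Fth1, Spp1, Mif, Il1rl1 and C3. B2m, the light chain of MHC class I, was at 4132 TPM in basal_TNF and 1135 TPM in basal. C3, the central complement component, was at 2701 CPM in basal_TNF and 69.7 CPM in basal (log2 ratio 5.27). Il1rl1, the receptor of interleukin 33, was at 2193 CPM in basal_TNF and 205 CPM in basal (3.42). Fth1, the ferritin heavy chain, gained in TPM with a log2 ratio of only 0.65, below the 2-fold threshold.

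The list of NF-kB subunits and their inhibitors, which also holds the IkB kinase genes Ikbke, Ikbkb, Chuk and Ikbkg, was higher as a group. Of 15 listed, 14 passed the filter, 10 were at least 2-fold higher and none was at least 2-fold lower, with a median log2 ratio of 1.34. Among the kinase genes only Ikbke was at least 2-fold higher (1.79). The inhibitors led. Nfkbie, which encodes IkB epsilon, was at 146 CPM in basal_TNF and 12.4 CPM in basal (3.55, 3.37 to 3.75), and Nfkbia, which encodes IkB alpha, was at 439 CPM in basal_TNF and 61.1 CPM in basal (2.84, 2.76 to 2.93). Relb and Bcl3, a subunit of the non-canonical dimer and an atypical IkB protein, had log2 ratios of 2.47 and 2.38. Subunits of the canonical dimers moved less: Nfkb1 was at 259 CPM in basal_TNF and 104 CPM in basal (1.31), and Rela was at 211 CPM in basal_TNF and 98 CPM in basal (1.11).

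Proteins that damp or relay the TNF receptor signal followed. Of 39 listed, 37 passed the filter, 18 were at least 2-fold higher and none at least 2-fold lower (median 0.94). Tnip3, a partner of A20, was at 33.2 CPM in basal_TNF and 0.253 CPM in basal (6.57). Traf1, an adaptor of TNF family receptors, was at 65.4 CPM in basal_TNF and 1.77 CPM in basal (5.13). Ripk2, the kinase of NOD receptors, was at 205 CPM in basal_TNF and 18.5 CPM in basal (3.46), and Tnfaip3, which encodes the ubiquitin editor A20, was at 372 CPM in basal_TNF and 37.5 CPM in basal (3.31). These 4 genes led the group. Birc3 and Birc2, the ubiquitin ligases of the receptor complex, had log2 ratios of 2.37 and 1.46.

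Promoter windows of these genes are shown because each holds a kappa B motif close to the start. The windows are RefSeq's, on GRCm38.p6, and span 250 bases before to 50 bases after each start. Stretches run 5′ to 3′ on the gene's strand, with capitals for a match, on either strand, to the tight kappa B motif (GGG, any 3 bases, TTCC) or, in Cxcl10, also to the interferon-stimulated response element (ISRE: GAAA, any 2 bases, GAAA). Cxcl10 has 2 kappa B matches and 1 ISRE match in 135 bases.
Nfkbia, chr12:55492659-55492684, minus strand, bases 37 to 12 before the start: actggcttGGAAATTCCCcgcgcctg
Nfkbie, chr17:45555586-45555611, plus strand, bases 114 to 89 before the start: agcaaacaGGGGGATTCCggaggggc
Tnfaip3, chr10:19015411-19015430, minus strand, bases 20 to 1 before the start: tttccatcGGAAATCCCCct
Cxcl10, chr5:92348976-92349110, minus strand, bases 221 to 87 before the start: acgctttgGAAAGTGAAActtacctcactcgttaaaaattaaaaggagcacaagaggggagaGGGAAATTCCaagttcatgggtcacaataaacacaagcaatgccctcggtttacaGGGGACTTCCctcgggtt
A match describes the letters of the window and is not a binding site shown by these data. Ccl2, Vcam1, Nos2 and Ccl5 were not matched in the table used here, and the 1 window of Icam1 held no match to the tight kappa B motif.

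Chemokines were the strongest of the secreted groups. Of 18 CC chemokines listed, 9 passed the filter, 6 were at least 2-fold higher and 1 was at least 2-fold lower (median log2 ratio 3.84). Ccl7, a monocyte chemokine next to Ccl2 on chromosome 11, was at 980.0 CPM in basal_TNF and 57.9 CPM in basal (4.08). Ccl8, the next there among genes that passed the filter, was at 32.5 CPM in basal_TNF and 0.101 CPM in basal (7.36). Among 11 CXC and CX3C chemokines that passed, of 16 listed, 8 were at least 2-fold higher and 2 at least 2-fold lower (median 2.15). Cxcl10, a ligand of Cxcr3, was at 193 CPM in basal_TNF and 3.29 CPM in basal (5.83). Both membrane-bound chemokines were higher, Cxcl16 at 153 CPM in basal_TNF and 10.2 CPM in basal (3.89) and Cx3cl1 at 349.6 CPM in basal_TNF and 110.0 CPM in basal (1.67). Cxcl1, a neutrophil chemokine, was at 128 CPM in basal_TNF and 32 CPM in basal (1.99). Not all chemokines were higher. Cxcl12, the homeostatic chemokine of stroma, was at 1654 CPM in basal_TNF and 4421 CPM in basal (-1.42, -1.44 to -1.40), and since it held most of the counts of the list the summed CXC level was lower in basal_TNF, 2529 CPM against 4581 CPM in basal.

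Cytokines and growth factors split more evenly. Of 33 listed, 27 passed the filter, 13 were at least 2-fold higher and 4 at least 2-fold lower (median 0.93). Lif, of the interleukin 6 family, was at 66.5 CPM in basal_TNF and 4.36 CPM in basal (3.90), and Csf1, the macrophage growth factor, was at 2261 CPM in basal_TNF and 851 CPM in basal (1.41). Vegfc, a lymphatic growth factor, was at 62.7 CPM in basal_TNF and 13.7 CPM in basal (2.18). These 3 were higher. Il6 was low in both, at 2.78 CPM in basal_TNF and 0.101 CPM in basal. Bmp2 and Bmp4, related growth factors, lay on opposite sides: Bmp2 was at 6.04 CPM in basal_TNF and 0.253 CPM in basal (4.13), and Bmp4 was at 9.31 CPM in basal_TNF and 60.3 CPM in basal (-2.68). Il1rn, the antagonist of the interleukin 1 receptor, was at 27.9 CPM in basal_TNF and 90 CPM in basal (-1.69).

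Among adhesion genes Icam1, Madcam1 and Vcam1 had the highest ratios. Of 20 listed, 18 passed the filter, 9 were at least 2-fold higher and 2 at least 2-fold lower (median 0.89). Cd44, the hyaluronan receptor, was at 586 CPM in basal_TNF and 253 CPM in basal (1.21). The selectins of endothelium were scarce in both libraries, with Sele at 1.3 CPM in basal_TNF and 0.152 CPM in basal and Selp at 3.65 CPM in basal_TNF and 0.862 CPM in basal. Aoc3, an amine oxidase with adhesive function, was at 6.96 CPM in basal_TNF and 96.1 CPM in basal (-3.77) and was among the 20 lowest ratios at 10 CPM or more.

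Receptors that sense microbes and cytokines, 36 of 38 listed, counted 14 at least 2-fold higher and 2 at least 2-fold lower (median 0.73). Tlr2, the receptor of bacterial lipopeptides, was at 242 CPM in basal_TNF and 41.6 CPM in basal (2.54), while its partners Tlr1 and Tlr6 had 1.87 and 7.8 CPM (-2.01) and 2.49 and 7.75 CPM (-1.60) in basal_TNF and basal. Tlr2 was thus higher and both partners lower. Nod2 was at 24 CPM in basal_TNF and 2.08 CPM in basal (3.47). In the TNF ligand and receptor family 23 of 31 passed, 8 were at least 2-fold higher and none at least 2-fold lower. Tnfrsf9 (4-1BB), a costimulatory receptor, was at 90 CPM in basal_TNF and 6.08 CPM in basal (3.87), and Fas, the death receptor, was at 123 CPM in basal_TNF and 21.7 CPM in basal (2.50).

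TNF and NF-kB targets formed 1 list of 52 genes, which draws on several of the groups above. As for all lists here, its members were chosen with earlier results of these data known. Its counts and median thus describe those members and are no independent support. Of the 49 that passed, 46 were at least 2-fold higher and 2 at least 2-fold lower, namely Plau (urokinase, -1.44) and F3 (tissue factor, -1.18). The median log2 ratio was 2.79, against −0.02 over all genes, and the summed level was 17151 CPM in basal_TNF and 2459 CPM in basal.

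Interferon response genes were higher to a like extent while transcripts of Ifnb1 and Ifng were near 0. Of 58 listed, 55 passed the filter, 51 were at least 2-fold higher and none at least 2-fold lower (median 2.69). Only 1 of the 55 is also on the TNF target list. Ifnb1, the first interferon made by most cells, had 1 count in each library, and Ifng had 0 in both. Ifnb1 and Ifng were chosen after their values were seen. Genes that respond to interferon or carry its signal were abundant. Irf7, an amplifier of type I interferon, was at 79.3 CPM in basal_TNF and 8.06 CPM in basal (3.28). Irf1, a factor that NF-kB can switch on directly, was at 288 CPM in basal_TNF and 59 CPM in basal (2.29).

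Effectors of several kinds were among them. Ifit3 and Ifit1, which bind foreign RNA, were at 397 and 16.3 CPM (4.60) and 323 and 17.9 CPM (4.16) in basal_TNF and basal. Isg15, a ubiquitin-like modifier, was at 143 CPM in basal_TNF and 7.65 CPM in basal (4.21), and Usp18, which removes it, was at 51.8 CPM in basal_TNF and 3.7 CPM in basal (3.77). Both the modifier and its protease were thus higher. Zbp1, a sensor of Z-form nucleic acid, was at 81.7 CPM in basal_TNF and 1.22 CPM in basal (5.96), Oas2, a 2'-5' oligoadenylate synthetase, at 48.5 CPM in basal_TNF and 1.17 CPM in basal (5.27), and Rsad2 (viperin) at 24.3 CPM in basal_TNF and 0.557 CPM in basal (5.22). Parp14, an ADP-ribosyl transferase, was at 313 CPM in basal_TNF and 26.5 CPM in basal (3.56).

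Windows of 4 interferon-linked genes and of Saa3 are shown because each holds an ISRE match. Capitals mark the ISRE motif on either strand and, in Gbp5, also the tight kappa B motif. Isg15 holds 3 matches that overlap in 1 run.
Isg15, chr4:156200867-156200904, minus strand, bases 86 to 49 before the start: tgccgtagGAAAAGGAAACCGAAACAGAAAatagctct
Ifit1, chr19:34640777-34640821, plus strand, bases 112 to 68 before the start: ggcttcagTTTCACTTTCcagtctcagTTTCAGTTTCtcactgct
Gbp2, chr3:142620596-142620621, plus strand, bases 67 to 42 before the start: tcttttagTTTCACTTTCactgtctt
Gbp5, chr3:142496761-142496874, plus strand, bases 173 to 60 before the start: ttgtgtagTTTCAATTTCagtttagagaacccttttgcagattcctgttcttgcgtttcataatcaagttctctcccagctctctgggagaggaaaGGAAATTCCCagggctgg
Saa3, chr7:46715784-46715809, minus strand, bases 133 to 108 before the start: tatcttctGAAAGAGAAAttatgggt

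Guanylate-binding proteins (GBP) and immunity-related GTPases (IRG), which attack vacuoles that hold pathogens, had the largest median of the interferon-linked groups. Of 19 listed, 16 passed the filter and 15 were at least 2-fold higher (median 3.75). Gbp2 was at 998 CPM in basal_TNF and 55.3 CPM in basal (4.17), Gbp3 at 393 CPM in basal_TNF and 18.1 CPM in basal (4.43) and Gbp5 at 124 CPM in basal_TNF and 1.11 CPM in basal (6.67). Irgm1, a regulator of the family, was at 215 CPM in basal_TNF and 48.6 CPM in basal (2.14). Summed over the 16 genes the level was 3018 CPM in basal_TNF and 234 CPM in basal. These families hold near-identical copies, so the split of reads among members is uncertain: Tgtp2 was at 119 CPM in basal_TNF and 10.1 CPM in basal, while Tgtp1 had 0 counts in both.

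The MHC class I pathway was higher from the proteasome to the cell surface. Of 23 genes listed, 22 passed, 20 were at least 2-fold higher and none at least 2-fold lower (median 2.14). The immunoproteasome subunits Psmb8, Psmb9 and Psmb10 were at 67.2 and 2.58 CPM (4.65), 19.8 and 1.37 CPM (3.76) and 129 and 11.7 CPM (3.46) in basal_TNF and basal. Peptide transport and loading moved less: Tap1 was at 126 CPM in basal_TNF and 49 CPM in basal (1.36), Tap2 at 138 CPM in basal_TNF and 36.6 CPM in basal (1.91), and Tapbp, the loading factor tapasin, at 1167 CPM in basal_TNF and 237 CPM in basal (2.30). The classical heavy chains H2-K1 and H2-D1 were at 599 and 33 CPM (4.18) and 533 and 72.9 CPM (2.87), again uncertain as paralogues. Nlrc5, the transactivator of the pathway, was at 43.3 CPM in basal_TNF and 6.18 CPM in basal (2.79).

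Some of the higher genes follow each other in the genome when only genes that passed the low-count filter are counted. In RefSeq order (GRCm38.p6), 12720 of the 13147 genes could be placed, and genes that failed the filter were skipped. In 29 runs of at least 3 successive placed genes all were at least 2-fold higher, holding 105 of the 781 higher genes placed. The number of runs to be expected without clustering was not worked out. The longest run held 9 genes of the Pyhin family on chromosome 1, from Aim2 to Ifi205, with log2 ratios of 1.42 to 4.65. Other runs included Mmp13, Mmp12, Mmp3, Mmp10 and Mmp27 on chromosome 9 and Slfn5, Slfn9, Slfn8 and Slfn2 on chromosome 11. Further ones were Psmb9, Tap1, Psmb8 and Tap2 on chromosome 17, and Gbp5, Gbp7, Gbp3 and Gbp2 on chromosome 3. Not all runs were tight or of relatives: Bmper, Npsr1, Dpy19l1 and Tbx20 on chromosome 9 spanned 1551 kb. Paralogues within such runs can share reads. Among lower genes 15 runs held 48 of 875 placed, the longest being Cenpp, Ecm2, Aspn, Omd and Ogn on chromosome 13.

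Acute phase and inflammatory enzymes held some of the steepest ratios. Of 29 listed, 18 passed the filter, 16 were at least 2-fold higher and none at least 2-fold lower (median 3.05). Besides Saa3, Irg1, Nos2 and Ch25h, the haptoglobin gene Hp was at 27.6 CPM in basal_TNF and 0.304 CPM in basal (6.11), and Gch1, which makes the cofactor of nitric oxide synthases, was at 25.6 CPM in basal_TNF and 1.47 CPM in basal (4.04). Sod2, the mitochondrial superoxide dismutase, was at 274 CPM in basal_TNF and 33.6 CPM in basal (3.02), and Cp, the copper protein ceruloplasmin, at 154 CPM in basal_TNF and 18.2 CPM in basal (3.08). Ptx3, a soluble pattern receptor, was at 279.9 CPM in basal_TNF and 78.9 CPM in basal (1.83).

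Complement and coagulation genes did not move as 1 group. Of 22 that passed, from 29 listed, 6 were at least 2-fold higher and 6 at least 2-fold lower (median −0.08). C3 and Cfb, which build the alternative pathway, were both higher, by the values above. F3, tissue factor, was at 37.8 CPM in basal_TNF and 85.7 CPM in basal (-1.18), and Thbd, which turns thrombin to anticoagulant use, was at 91.9 CPM in basal_TNF and 189 CPM in basal (-1.04). Plau, urokinase, was at 50.5 CPM in basal_TNF and 137 CPM in basal (-1.44).

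Prostanoid genes were narrower, with 3 of 13 at least 2-fold higher and none at least 2-fold lower (20 listed). Ptgs2, the inducible cyclooxygenase, was at 54.5 CPM in basal_TNF and 14.3 CPM in basal (1.93), and Ptges, the synthase of prostaglandin E2, at 134 CPM in basal_TNF and 28 CPM in basal (2.25). Metalloproteinases and their inhibitors lay on both sides: 10 of 32 were at least 2-fold higher and 4 at least 2-fold lower (34 listed, median 0.07). Mmp3 (stromelysin) was at 245 CPM in basal_TNF and 9.43 CPM in basal (4.69), and Mmp9 (gelatinase B) at 73.7 CPM in basal_TNF and 4.81 CPM in basal (3.91). Members of the Adamts family differed, with Adamts7 at 178 CPM in basal_TNF and 18.6 CPM in basal (3.25). Adamts5 and Adamts1, which cut proteoglycans, were at 119 and 307 CPM (-1.37) and 86.9 and 204 CPM (-1.23) in basal_TNF and basal, and Timp3, a matrix-bound inhibitor, was at 1349.8 CPM in basal_TNF and 2975 CPM in basal (-1.14).

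Among genes with at least 10 CPM in either library, 5 of the 20 lowest ratios were on the list of small leucine-rich proteoglycans and 2 on the Wnt list. Fmod, which encodes the collagen-binding proteoglycan fibromodulin, was at 1.63 CPM in basal_TNF and 97.3 CPM in basal (-5.82, -6.43 to -5.41). Aspn, asporin, was at 1.73 CPM in basal_TNF and 82.2 CPM in basal (-5.50, -6.09 to -5.10). Npr3, the clearance receptor for natriuretic peptides, was at 3.89 CPM in basal_TNF and 123 CPM in basal (-4.95). Each was thus nearly lost in basal_TNF. The others of the 20 were Vit, Sfrp4, Sfrp2, Prelp, Sned1, Lrrn3, Aoc3, Ogn, Plxna4, Omd, Dhrs3, Mterfd2, Igfbp4, Scara5, Emb, Itga11 and Lrrc17, with log2 ratios from -4.31 for Vit to -2.98 for Lrrc17. Sned1 and Mterfd2 are direct neighbours on chromosome 1, and the strand of the libraries is not given in the sources used here.

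Small leucine-rich proteoglycans, which space collagen fibrils, showed the lowest median of all the lists with at least 10 members, −1.55. Of 16 listed, 13 passed the filter, 7 were at least 2-fold lower and 2 at least 2-fold higher. Ogn, osteoglycin, was at 58 CPM in basal_TNF and 629 CPM in basal (-3.43), Prelp at 8.44 CPM in basal_TNF and 132 CPM in basal (-3.95) and Omd, osteomodulin, at 2.93 CPM in basal_TNF and 29.1 CPM in basal (-3.27). The exceptions were Dcn, decorin, at 72.8 CPM in basal_TNF and 2.79 CPM in basal (4.66), and Lum, lumican, at 3.36 CPM in basal_TNF and 0.152 CPM in basal (3.79), which are neighbours on chromosome 10. Bgn, biglycan, which held most of the summed level, moved little, at 4056 CPM in basal_TNF and 4647 CPM in basal (-0.20). The summed level of the list was 4241 CPM in basal_TNF and 5662 CPM in basal. Members of 1 family thus lay at both ends of the range.

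Collagens and their enzymes were shifted downwards by a smaller step. Of 33 that passed, from 34 listed, 8 were at least 2-fold lower and 2 at least 2-fold higher (median −0.58). Col1a1 and Col1a2, the chains of type I collagen, had 7837 and 14823 CPM, and 4652 and 8828 CPM, in basal_TNF and basal, log2 ratios of -0.92 and -0.92 that miss the 2-fold threshold. On TPM with 1 added both pass it, at −1.05. Col3a1 was at 598 CPM in basal_TNF and 1698 CPM in basal (-1.51), and Lox, which crosslinks collagen, at 1385 CPM in basal_TNF and 3126 CPM in basal (-1.17). Col5a3 stood on the other side at 233 CPM in basal_TNF and 49.5 CPM in basal (2.23). The summed level of the list was 22248 CPM in basal_TNF and 39579 CPM in basal. Of the 15 smooth muscle and fibroblast markers, which include 3 collagen genes, 13 had negative log2 ratios. Those outside the matrix ran from -0.18 for Pdgfra to -1.31 for Cnn1, with -0.77 for Thy1 and -0.83 for Tagln. The part of a shift in cell make-up was not tested.

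Matrix glycoproteins gave 10 of 39 at least 2-fold lower and 4 at least 2-fold higher (41 listed, median −0.60). Eln, elastin, was at 0.0959 CPM in basal_TNF and 4.92 CPM in basal (-4.70), and Nid2, a basement membrane protein, at 26.5 CPM in basal_TNF and 142 CPM in basal (-2.42), whereas its relative Nid1 was at 2264 CPM in basal_TNF and 796 CPM in basal (1.51). Spp1 (osteopontin) and Tnc (tenascin C), both typical of inflamed matrix, were at 1407 and 347 CPM (2.02) and 207 and 57 CPM (1.86) in basal_TNF and basal. The largest losses in TPM were of abundant stromal genes: S100a4, Col1a1, Cxcl12, Col1a2, Vim, Sparc, Lox, Fn1, Sfrp2 and S100a6. Only Cxcl12, Lox and Sfrp2 among these 10 were at least 2-fold lower.

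Wnt pathway genes were lower too. Of 26 that passed, from 30 listed, 11 were at least 2-fold lower and 1 at least 2-fold higher (median −0.81). Sfrp2, a secreted Wnt antagonist, was at 61.6 CPM in basal_TNF and 972 CPM in basal (-3.98, -4.06 to -3.90), and Sfrp4, a relative, at 0.48 CPM in basal_TNF and 10.4 CPM in basal (-4.19). The receptor gene Fzd1 was at 52.8 CPM in basal_TNF and 238 CPM in basal (-2.17), and Lgr4, a receptor of R-spondins, at 21.9 CPM in basal_TNF and 56.2 CPM in basal (-1.36). Antagonists and receptors were thus lower together.

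Over all genes 6.15% were at least 2-fold higher and 6.94% at least 2-fold lower, and several lists had few or no such genes. None of 32 replication and mitosis genes was called (median −0.25). Of 40 splicing regulators 1, Rbfox1, was at least 2-fold higher and 1, Nova2, at least 2-fold lower, both under 2 CPM. Mbnl1, a regulator of muscle-type splicing, was at 221 CPM in basal_TNF and 375 CPM in basal (-0.77). Unfolded protein and stress genes gave 1 higher and 2 lower of 31, and cholesterol genes 1 higher and none lower of 20, all by at least 2-fold. The stress list's share of lower genes and the cholesterol list's share of higher genes were close to those of all genes. The p53 targets gave 2 at least 2-fold higher and 2 at least 2-fold lower of 23, shares that are not below those of all genes. Smooth muscle contractile genes gave 4 at least 2-fold lower and none at least 2-fold higher of 22 (median −0.37). Their share of lower genes was above that of all genes. By contrast, immediate early genes and MAP kinase phosphatases gave 8 of 30 at least 2-fold higher and none at least 2-fold lower (median 0.65), among them Junb, an AP-1 subunit, at 246 CPM in basal_TNF and 54.1 CPM in basal (2.18).

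**Figure D2:**
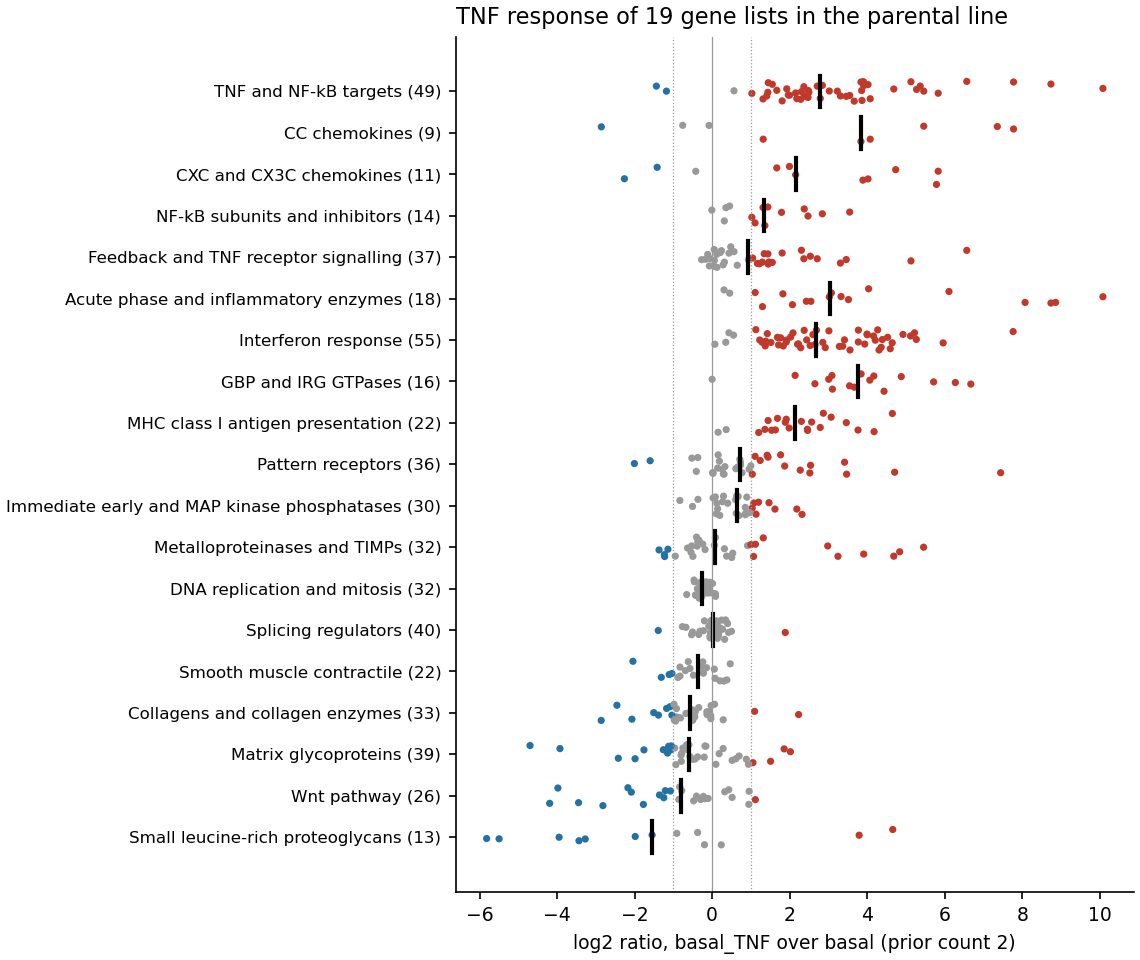
Each point is the log2 ratio of 1 gene between basal_TNF and basal, with red at 1 or more and blue at −1 or less, and each black bar is the median of its list. The number of genes that passed the low-count filter stands beside each name. Medians run from 3.84 for CC chemokines to −1.55 for the small leucine-rich proteoglycans.

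The other 2 pairs allow the parental response to be looked up in libraries that it does not share. Of the 808 genes at least 2-fold higher in the parental pair, 472 (58.4%) were at least 2-fold higher in Rescue_TNF over Rescue, where 4.75% of all genes were called higher and 9.71% in either direction, and they made up 75.6% of those 624 calls. In KO_TNF over KO, where 2.93% of all genes were called higher and 7.44% in either direction, 207 (25.6%) were at least 2-fold higher, which is 53.8% of those 385 calls. Of the 912 lower genes, 384 (42.1%) were lower in the Rescue pair (background 4.96%) and 310 (34.0%) in the KO pair (background 4.51%). In both other pairs together 166 genes were higher and 196 lower. Nothing in this count tests whether the lines differ, and with 1 library a group there is no residual spread for such a test.

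The effect of TNF over the 3 lines together was fitted with each line as a block of 1 library with TNF and 1 without. The lines differ in Ptbp1, and KO and Rescue come from the same clone, so they are not independent replicates. Differences between lines in the TNF effect make up the residual spread of this fit. In edgeR's quasi-likelihood test with Benjamini-Hochberg adjustment, 1451 genes (11%) were higher with TNF and 1376 (10.5%) lower at an adjusted p under 0.05. The fit was chosen after the data were seen, has 2 residual degrees of freedom and includes the parental pair. All 5 response markers passed: the log2 effect was 4.69 for Ccl2 (adjusted p = 0.00788), 3.21 for Vcam1 (adjusted p = 0.00925) and 4.58 for Icam1 (adjusted p = 0.00892), and the adjusted p was 0.00142 for Nos2 and 0.00697 for Saa3. Each of these was higher in the library with TNF in 3 of 3 lines. In the KO pair this rested on 4 counts against 0 for Nos2 and 5 against 0 for Saa3. Of the TNF target list, chosen with earlier results known, 40 of 49 genes were higher and 2 lower. Of the interferon list 6 of 55 were higher and none lower, in a fit that takes the effect to be equal in the 3 lines.

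Side by side the lists differ in how far they carry over. The TNF target list had a median log2 ratio of 2.79 in the parental pair, 1.15 in the KO pair and 2.42 in the Rescue pair. For the interferon list the medians were 2.69, 0.22 and 1.43, for the MHC class I list 2.14, 0.14 and 1.19, and for the GBP and IRG list 3.75, 0.21 and 2.11. Levels show where the KO pair stood. The median member of the interferon list was at 81.3 CPM in basal_TNF and 13.2 CPM in basal, at 80.4 CPM in KO_TNF and 68.7 CPM in KO, and at 22.4 CPM in Rescue_TNF and 7.86 CPM in Rescue. The median of the interferon list was hence already high in KO without TNF, but this did not hold for each member. Irf7 was at 105 CPM in KO_TNF and 97.7 CPM in KO. Zbp1 was at 8.97 CPM in KO_TNF and 5.61 CPM in KO, against 81.7 CPM in basal_TNF. Summed over the GBP and IRG list the level was 1063 CPM in KO_TNF and 936 CPM in KO, against 3018 CPM in basal_TNF.

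Single genes varied more. Ccl2 was at 381 CPM in KO_TNF and 33.1 CPM in KO (3.52), and at 1640.0 CPM in Rescue_TNF and 50.3 CPM in Rescue (5.02). Vcam1 was at 218 CPM in KO_TNF and 46.5 CPM in KO (2.23), and at 872 CPM in Rescue_TNF and 67 CPM in Rescue (3.70). Both were higher with TNF in all 3 pairs. Icam1 was at 2.53 CPM in KO_TNF and 0.246 CPM in KO, and at 3.07 CPM in Rescue_TNF and 0.267 CPM in Rescue. Nos2 had 4 counts in KO_TNF and 0 in KO, against 545 counts in Rescue_TNF and 0 in Rescue. Saa3 had 5 counts in KO_TNF and 0 in KO, against 104 counts in Rescue_TNF and 0 in Rescue. Nos2 and Saa3 were thus well above the floor of 3 counts with TNF in the parental and Rescue pairs, and near it in the KO pair. Sfrp2 was lower in all 3 pairs, with 147 CPM in KO_TNF and 1007 CPM in KO, and 25.3 CPM in Rescue_TNF and 287 CPM in Rescue.

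**Figure D3:**
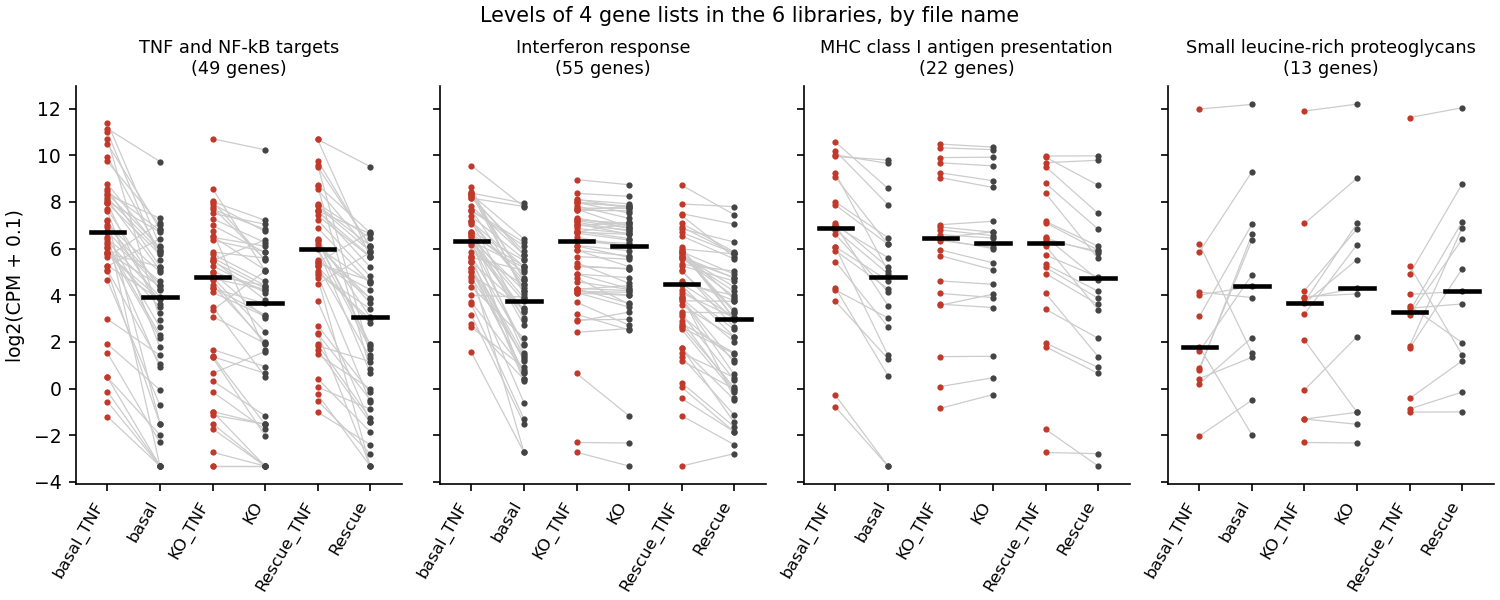
Each point is the level of 1 gene in 1 library, as log2 of CPM with 0.1 added, for 4 lists. Lines join a gene's values within a pair, red points are libraries named TNF, dark points are those without, and black bars are medians. In the interferon panel the median of KO lies next to that of KO_TNF, while basal lies well below basal_TNF.

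Motif matches were counted in the RefSeq windows of 300 bases, on both strands, for 10302 of the 13147 genes. A loose kappa B motif (GGG, any 5 bases, CC) was in 59.7% of the 129 windows of genes at least 8-fold higher, 67.5% of the windows of genes at least 2-fold higher, 61.6% of those lower and 67.0% of all. Its share in the strongest genes was thus not above that in all genes. The tight form (GGG, any 3 bases, TTCC), tried after the loose form was seen, was in 18.6%, 10.6%, 4.80% and 6.22% in that order. The ISRE motif (GAAA, any 2 bases, GAAA) was in 23.3%, 10.6%, 2.88% and 3.01%. The AP-1 motif TGANTCA was in 21.7%, 12.5%, 7.08% and 5.37%, and TATAAA in 25.6%, 12.7%, 11.8% and 7.43%. Over all 32851 windows of the table the shares were 50.8% for the loose kappa B motif, 5.56% for the tight one, 3.44% for ISRE, 7.81% for AP-1 and 13.6% for TATAAA. By list, ISRE was in 9 of 10 windows of GBP and IRG genes and 24 of 50 of the interferon list, and the tight kappa B motif in 15 of 41 windows of the TNF target list. Every match to the tight kappa B motif is also one to the loose form. Genes may have several windows that overlap, and no test was made.

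**Figure D4:**
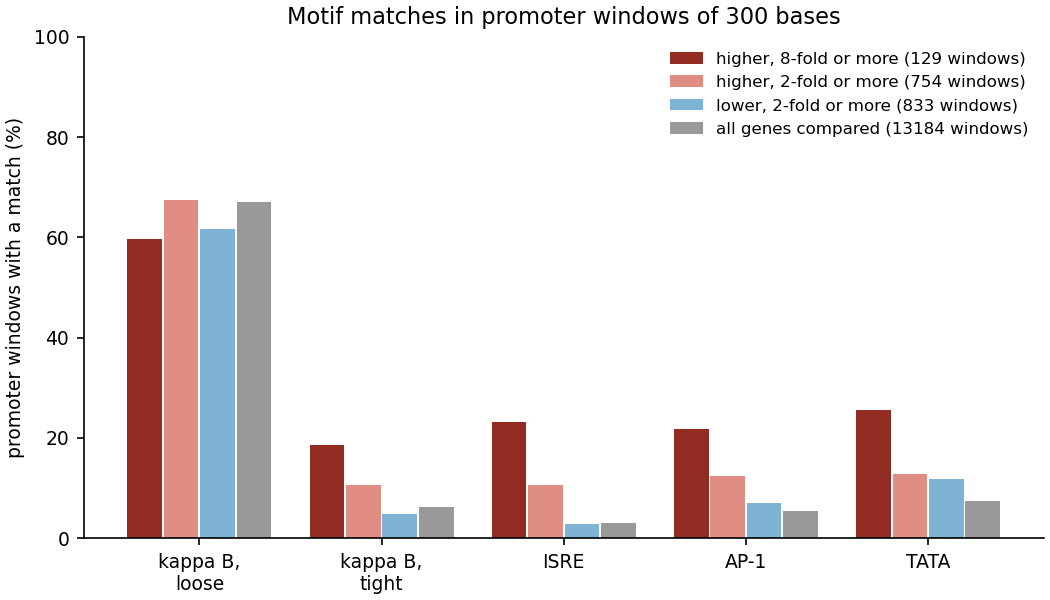
Bars give the percentage of promoter windows with at least 1 match on either strand, for genes at least 8-fold higher, at least 2-fold higher, at least 2-fold lower and for all genes compared. The loose kappa B motif is in 59.7% to 67.5% of the windows of these sets, and the ISRE bar is 23.3% for the strongest set and 3.01% for all.

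Splicing was read from the deposited psi values, the share of reads that include a node of a gene (a stretch between neighbouring splice sites), for nodes with at least 20 reads in both libraries. A difference of at least 0.2 was found for 243 cassette exon nodes (0.29%), 103 alternative acceptor nodes (2.33%), 92 alternative donor nodes (2.76%) and 83 retained intron nodes (1.37%). These shares cannot be compared between types, since many nodes lie near a psi of 0 or 1. A mean psi of 5% to 95% was found for 3743 of 83698 cassette nodes and 1682 of 4416 acceptor nodes. For donor nodes it was 1253 of 3335, and for retained intron nodes 2199 of 6073. Nodes at transcript starts and ends differed more often, 1605 (9.76%) and 3363 (11.2%) in that order, and are not described further. Over all 6 node types 5489 of 143909 (3.81%) differed. Of the 521 internal nodes called, 367 had deposited intervals that did not overlap. Cassette exon nodes were lower 137 times and higher 106 times. In comparison, KO_TNF minus KO had 197 called cassette nodes and Rescue_TNF minus Rescue had 210.

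Few of these differences came back in the other pairs. Of the 367 internal nodes, 323 had at least 20 reads in both libraries of the KO pair. There 149 had the same sign and 154 the opposite one, and 31 moved by at least 0.2 the same way and 18 the opposite way. In the Rescue pair, of 329 nodes, 186 had the same sign and 126 the opposite one, and 33 moved by at least 0.2 the same way and 35 the opposite way. Measured in all 6 libraries were 304 nodes, of which 31 moved by at least 0.1 the same way in both other pairs and 24 the opposite way in both. The number that repeated was thus close to the number that reversed. Of the 30 genes with a repeated node, 1, Adamts7, was at least 2-fold different in level, against 13.1% of all genes. That share includes many weak genes. Of 2229 kept genes with a called node of any type and intervals apart, 4.26% were at least 2-fold higher and 3.68% at least 2-fold lower. With 30 genes, 1 is too few to set apart from these shares.

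**Figure D5:**
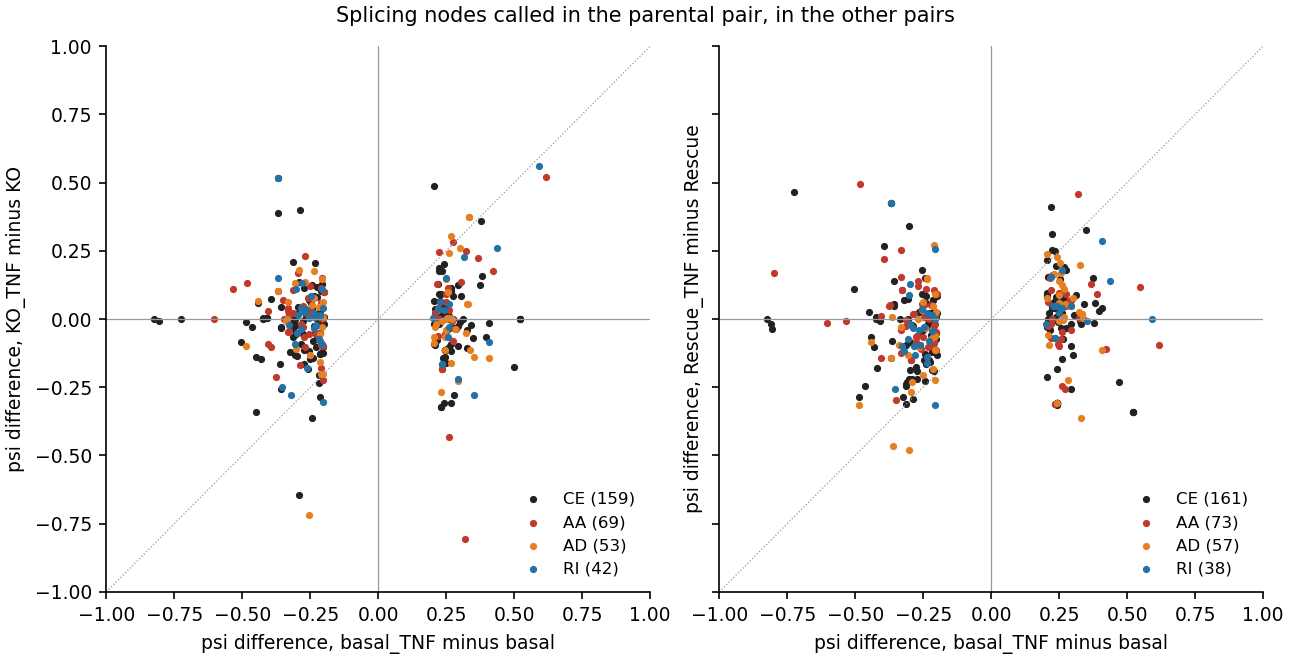
Each point is 1 internal splicing node called in the parental pair with intervals apart, with its psi difference there on the horizontal axis and in the KO pair (left) or the Rescue pair (right) on the vertical axis. CE is a cassette exon node, AA an alternative acceptor, AD an alternative donor and RI a retained intron, and the dotted line marks equal differences. Most points lie near 0 on the vertical axis in both panels.

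Of the 31 repeated nodes 18 were cassette exons, and 3 with short exons and junction reads on both sides are shown as examples. The sequence comes from the GENCODE vM21 transcript on GRCm38, with the exon in capitals and 20 bases of each neighbouring exon in lower case.
Ahi1, exon at chr10:21007752-21007778, plus strand: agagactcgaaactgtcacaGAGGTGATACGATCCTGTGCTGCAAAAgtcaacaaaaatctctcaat
Senp6, exon at chr9:80098886-80098906, plus strand: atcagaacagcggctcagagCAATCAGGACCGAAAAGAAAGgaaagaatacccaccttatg
Fnip1, exon at chr11:54487712-54487795, plus strand: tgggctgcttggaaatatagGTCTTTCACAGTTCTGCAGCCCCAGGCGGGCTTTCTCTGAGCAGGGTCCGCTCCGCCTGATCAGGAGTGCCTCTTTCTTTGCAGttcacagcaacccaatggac
The 27-base exon of Ahi1, a gene of the primary cilium, had a psi of 0.956 in basal_TNF (44 reads) and 0.733 in basal (39 reads), 0.882 in KO_TNF and 0.695 in KO, and 0.947 in Rescue_TNF and 0.636 in Rescue. It was included more with TNF in each pair, which the choice among repeated nodes fixed in advance for all 3 examples. The 21-base exon of Senp6, a SUMO protease, had a psi of 0.477 in basal_TNF (64 reads) and 0.705 in basal (81 reads), 0.524 in KO_TNF and 0.627 in KO, and 0.474 in Rescue_TNF and 0.623 in Rescue. Here inclusion was lower with TNF. The 84-base exon of Fnip1, a partner of folliculin, had a psi of 0.727 in basal_TNF (133 reads) and 0.460 in basal (127 reads), with 21 and 47 junction reads that skip it. The psi difference of this exon was 0.101 in the KO pair and 0.192 in the Rescue pair. All 3 lengths are multiples of 3.

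The best covered repeated cassette was in Wsb1, a substrate receptor of a ubiquitin ligase, with a psi of 0.655 in basal_TNF (365 reads) and 0.873 in basal (485 reads). Its psi was 0.419 in KO_TNF and 0.654 in KO, and 0.692 in Rescue_TNF and 0.877 in Rescue. Junction reads covered its edges unevenly, with 9 into and 70 out of the exon in basal_TNF, and 11 and 146 in basal. A retained intron node of Adamts7, a metalloproteinase gene, had a psi of 0.565 in basal_TNF (432 reads) and 0.887 in basal (50 reads), while the gene itself was at 178 CPM in basal_TNF and 18.6 CPM in basal (3.25). Among nodes with the largest differences, an alternative donor of Tnip1, a partner of A20, had a psi of 0.0185 in basal_TNF (354 reads) and 0.462 in basal (45 reads). It was not lower in the KO pair, and the drop was smaller in the Rescue pair: the psi was 0.0876 in KO_TNF and 0.0209 in KO, and 0.0173 in Rescue_TNF and 0.102 in Rescue. An alternative donor of Serpinb6a, a serine protease inhibitor, had a psi of 0.0889 in basal_TNF (402 reads) and 0.427 in basal (390 reads), against 0.376 in KO_TNF and 0.383 in KO. An alternative acceptor of Dynlrb1, a dynein light chain gene, had a psi of 0.915 in basal_TNF (300 reads) and 0.298 in basal (353 reads), and likewise 0.872 in KO_TNF and 0.352 in KO, but 0.809 in Rescue_TNF and 0.905 in Rescue.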

How the data were processed

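A SMARTER kit was used on purified RNA, per the labels' protocols. For each gene the authors deposited expected counts from RSEM with the TPM, per the file headers and the submitters' processing notes. For the library named KO these were summed from transcripts. Also deposited were another set of expected counts per gene, psi as a fraction per splicing node with its interval, and counts per splice junction, per the file headers. The sources used here do not give the aligner, the RSEM version, the strand or the build of the gene counts. Node coordinates are read as GRCm38, since 99.8% of 173278 cassette nodes start or end at a GENCODE vM21 exon edge.

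Expected counts were rounded. Of 21675 genes, 13147 passed filterByExpr over 6 libraries, and TMM factors came from edgeR 4.0.16 (R 4.3.3). Log2 ratios used a prior count of 2. A call is a log2 ratio of at least 1 in size. The parental pair has 1 library a group and was not tested. After the data were seen, TNF was tested over the 3 lines with line as a block (edgeR's quasi-likelihood test, 2 residual degrees of freedom). Intervals are exact conditional binomial intervals (scipy 1.17.1), and the interval, ratio and block steps were tested on simulated data. Members and lists were chosen with earlier results of these data known. Named genes are the 5 markers, the 20 highest and 20 lowest ratios at 10 CPM or more, the 10 largest gains and losses in TPM, list members, and the 10 nodes per type with the largest difference; the repeated nodes were picked after their values were seen. DESeq2 1.42.0 size factors, other scalings, filters, prior counts, the TPM, the second quantification and the labels' groups were tried as alternatives. Counts per isoform were not used here. Some genes are not reported here.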

Additional observations from a re-analysis of the deposited data

Results flagged for a closer look

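Named genes and kept members of all 33 lists were screened in both other pairs for ratios opposite to the parental pair's. Both ratios had to be at least 2-fold, with counting intervals that exclude no change. This left 4 genes, all in KO_TNF over KO, and all of the complement and acute phase lists. Over all genes, 21 of the 808 higher and 23 of the 912 lower went at least 2-fold the opposite way there, without the interval condition. None of these differences between lines was tested, since each group has 1 library. Lbp, which hands bacterial lipopolysaccharide to its receptor, had a log2 ratio of −2.69 in KO_TNF over KO (0.101 and 1.18 CPM), against 2.55 in basal_TNF over basal (28.4 and 4.76 CPM). Ptx3 had −1.12 in KO_TNF over KO, against 1.83 in basal_TNF over basal (279.9 and 78.9 CPM), and 1.15 in Rescue_TNF over Rescue. In KO_TNF and KO it had 356 and 797 raw counts, from TMM-scaled totals of 19731064 and 20323050 counts. Its CPM in the KO pair thus lay below those of the parental pair. C1rb, a complement protease gene with a close paralogue in C1ra, had −2.22 in KO_TNF over KO, against 2.08 in basal_TNF over basal, at levels under 3 CPM. F2rl1, the protease-activated receptor PAR2, had 1.69 in KO_TNF over KO, against −1.08 in basal_TNF over basal, also under 3 CPM.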

How the results depend on the processing

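With TNF tested over the 3 lines and line as a block, by another call rule than the parental pair's, 1451 genes were higher and 1376 lower. Depth limits the weakest genes: of the 808 higher genes 133 had at most 3 counts in basal, and of the 912 lower genes 160 had at most 3 counts in basal_TNF. With log2 of TPM with 1 added, 483 genes were at least 2-fold higher and 525 lower, the interferon list's median was 2.36, and the median of all genes shifted to −0.13. The second quantification gave 1171 higher and 1386 lower genes, over 17261 genes. Of the 754 higher and 800 lower genes that it also kept, 682 and 659 were called again. Counting intervals wholly past 2-fold left 396 lower genes. Under the groups of the labels (the library labelled WT_TNF over that labelled WT) there were 964 higher and 1703 lower genes, 36.1% of calls higher against 47.0% by file name. There the TNF list's median was 0.85, the interferon list's was 2.28 and Nos2 turned to −0.23. A minimum of 50 reads left 3505 splicing nodes of all 6 types, against 5489. The tight kappa B motif, chosen after the data were seen, was in 18.6% of windows where the looser motif was in 59.7%. DESeq2 size factors, library totals, no low-count filter and prior counts of 0.5 and 5 gave 742 to 971 higher and 769 to 1329 lower genes. None of the 304 list members called was reversed under these, and none of the 275 of them with a value in TPM or the 301 in the second quantification. Under library totals 297 of the 304 were still called. Among the named genes Mif passed 2-fold on the main scale and missed it on library totals (0.97), TPM (0.91) and the second quantification (0.85).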
